A study of Homo sapiens with 2 samples.

Results

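The 10 genes described here are ligands and receptors of the interleukin-1 (IL-1) family, taken from the 58884 genes of the deposited table by their symbols. They comprise the agonists IL1A, IL1B, IL18, IL33 and IL36G, the receptor antagonist IL1RN, the signalling receptor IL1R1 with its accessory chain IL1RAP, the decoy receptor IL1R2, and IL1RL1, the receptor of IL-33. The study compared 2 RNA libraries of TPC-1, an established line from a papillary thyroid carcinoma that carries a RET gene fusion. The siControl library came from TPC-1 cells that received a control siRNA, and the siXPR1 library from TPC-1 cells that received an siRNA against XPR1, which encodes the cell's phosphate exporter. Each group is 1 library of 1 line, so there was no replicate and no test of the conditions, and effects of this siRNA other than loss of XPR1 cannot be told apart from it. Neither the siRNA sequences nor the time of harvest is given in the sources used here.

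IL-1 family ligands are cytokines of epithelial and myeloid cells. IL-1 alpha and IL-1 beta both bind IL1R1, which then recruits IL1RAP and signals through MYD88 and IRAK kinases to NF-kB and MAP kinases. The antagonist occupies IL1R1 without recruiting the accessory chain, and the decoy binds the agonists but lacks a signalling domain. IL-1 induces its own genes and many cytokine and chemokine genes, and several of these mRNAs turn over rapidly.

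XPR1 stood at 39.2 TPM in the siControl library and 5.31 TPM in the siXPR1 library, which left 13.5% of the control level (95% counting interval 11.6% to 15.7%). TPM is a level corrected for gene length and expressed as a share of the transcripts in its library. Comparisons between genes rest on the lengths used, here those of all annotated exons of a gene joined. They were 2124 bases for IL1A, 7083 for IL1R1 and 11558 for IL1RAP. The transcripts present can be shorter, so levels and ratios between genes are approximate in a way that counting intervals do not cover. Multiplied by gene length, the values came out as whole multiples of 1 read in 92.2% of siControl genes and 92.4% of siXPR1 genes with no more than 10 reads, and in 72.0% and 71.6% of all genes above 0. The unit so found gave about 15780000 and 15150000 counted reads, and reads of genes that did not come out whole are approximate. Intervals below are Clopper-Pearson intervals of a ratio, or exact Poisson intervals of a level, from those reads. They cover counting error only. The thyroid factor PAX8 was at 588 and 409 TPM and the keratin KRT18 at 136 and 94.0 TPM, in the siControl and siXPR1 library respectively. Of 13 thyroid and epithelial identity genes, 6 reached a mean of 1 TPM, and of these the keratin KRT7 was 2-fold lower or more (11.1 and 3.39 TPM), while the other 5, among them the thyroid factor FOXE1 (11.1 and 13.7 TPM), were within 2-fold. The thyroid factor NKX2-1, the receptor TSHR and the epithelial adhesion gene EPCAM were at 0 in both. Of 30 markers of myeloid cells, mast cells and lymphocytes, 20 were at 0 in both libraries, among them LYZ, TYROBP, CD3E and MPO. The highest was 0.736 TPM, and the markers summed to 3.03 and 3.10 TPM. Endothelial markers summed to 5.99 and 3.14 TPM, and 1 of the 2 that averaged 1 TPM or more, the receptor TIE1, was lower (3.04 and 0.882 TPM). Fibroblast markers summed to 28.5 and 42.5 TPM, most of it FBLN1 (26.8 and 34.3 TPM), and 1 of the 2 that averaged 1 TPM or more, the collagen gene COL1A1, was higher (1.04 and 6.67 TPM, ratio 6.43, interval 4.65 to 9.09). Of all genes that averaged 1 TPM or more, 8.57% were lower and 10.4% higher by the threshold given below. The part of the identity and marker genes in the results below was not tested.

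Promoter windows from RefSeq (GRCh38.p14), 250 bases before to 50 after a start, matched 9 of the 10 members by symbol, with 18 windows in all. Shown are those of IL1A and IL1B, the agonists with the highest level in the siControl library, and of IL1R2, the 1 member that was higher in the siXPR1 library by the threshold used below. Where a gene has several windows, the one nearest the start of its principal GENCODE 29 transcript was taken. The RefSeq start of the window lay 97 bases from that start for IL1A, 124 for IL1B and 116 for IL1R2. For IL33 and IL1RAP, not shown, the nearest lay 25875 and 49856 bases away. Capitals mark matches, on either strand, to the AP-1 motif TGANTCA, the C/EBP motif TTNNGNAA and the TATA motif TATAAA. The CRE motif TGACGTCA and the NF-kB motif were searched as well, and neither had a match in any of the 18 windows. IL1A lies at chr2:112784444-112784743 and IL1B at chr2:112836730-112837029, both on the minus strand, and IL1R2 at chr2:101991710-101992009 on the plus strand.
IL1A: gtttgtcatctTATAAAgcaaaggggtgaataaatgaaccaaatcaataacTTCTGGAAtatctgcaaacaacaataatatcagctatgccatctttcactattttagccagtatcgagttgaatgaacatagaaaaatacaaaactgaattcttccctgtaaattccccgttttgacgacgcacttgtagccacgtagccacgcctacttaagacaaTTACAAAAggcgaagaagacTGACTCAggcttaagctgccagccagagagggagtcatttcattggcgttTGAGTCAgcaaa
IL1B: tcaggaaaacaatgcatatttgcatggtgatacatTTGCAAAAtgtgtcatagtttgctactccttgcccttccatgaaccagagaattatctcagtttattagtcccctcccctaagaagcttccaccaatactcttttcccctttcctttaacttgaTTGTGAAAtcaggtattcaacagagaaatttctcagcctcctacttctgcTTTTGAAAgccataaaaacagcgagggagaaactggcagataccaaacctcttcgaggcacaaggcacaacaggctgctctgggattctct
IL1R2: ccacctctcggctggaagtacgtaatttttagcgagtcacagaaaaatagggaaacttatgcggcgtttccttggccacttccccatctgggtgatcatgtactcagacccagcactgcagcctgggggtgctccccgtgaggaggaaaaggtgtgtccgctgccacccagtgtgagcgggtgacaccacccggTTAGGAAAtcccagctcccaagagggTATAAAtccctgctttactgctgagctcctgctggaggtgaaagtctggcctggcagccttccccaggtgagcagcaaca

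The IL1A window held 2 AP-1 matches, 2 C/EBP matches and a TATA match at -239, counted in bases from the window's RefSeq start. The AP-1 matches begin 12 bases before the window's RefSeq start (-12) and at base 39 after it. IL1B held 3 C/EBP matches and no AP-1 match, and IL1R2 a C/EBP match and a TATA match at -30. Over all 35116 windows of this length, 7.71% held the AP-1 motif, 36.8% the C/EBP motif, 11.5% the TATA motif, 5.91% the NF-kB motif and 1.85% the CRE motif. The AP-1 motif occurred in 4 of the 18 member windows, from 3 members, IL1A, IL1RN and IL1RL1. The C/EBP motif occurred in 10, from 6 members, and the TATA motif in 5, from 5 members. Some members have several windows, so counts of members cannot be set against the shares of single windows. Within the windows shown, IL1A and IL1B both held C/EBP matches, a motif found in 36.8% of all windows. They did not share a match to AP-1, CRE or NF-kB there, and sequence beyond the 18 windows was not searched. A match here is a string of letters, and no binding was measured.

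The 3′ untranslated regions (UTRs) were read for the pentamer ATTTA, the core of AU-rich elements, which mark many cytokine mRNAs for rapid decay. Shown for IL1A (bases 615 to 643 of its 3′ UTR) and IL1B (bases 346 to 358) is the short stretch with the most pentamers. These genes were chosen as the agonists with the highest level in the siControl library. Capitals mark the pentamers, 3 in each stretch.
IL1A: ATTTAtatatgtATTTAtaaatatATTTA
IL1B: ATTTATTTATTTA

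In the principal GENCODE 29 transcripts, IL1A had 5 pentamers in 1152 bases of 3′ UTR and IL1B had 6 in 610. The density in IL1B, 9.84 per kb, was matched or exceeded by 1.68% of 18841 protein-coding genes, and that in IL1A, 4.34, by 13.3%. The median over all these genes was 1.41 per kb. Pentamers were also present in transcripts of the receptor chains. IL1RAP held 15 in 2813 bases, 5.33 per kb, and IL1R1 held 8 in 3115, 2.57 per kb. IL33 held 4 in 1815 bases, 2.20 per kb, a density that 37.5% of genes matched or exceeded. IL1R2 held 1 in a short 3′ UTR of 152 bases, 6.58 per kb, which 4.96% of genes matched or exceeded, and IL36G held 1 in 616 bases, 1.62 per kb. IL1RN, IL18 and IL1RL1 held none. Ordered by density, the members with pentamers ran IL1B, IL1R2 (on 1 pentamer), IL1RAP, IL1A, IL1R1, IL33 and IL36G (on 1 pentamer). Decay of these mRNAs was not measured, and its part in the differences between the libraries was not tested.

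In these 2 libraries, transcripts of the agonists IL1A, IL1B and IL33 were 42.7-fold to 72.6-fold lower after XPR1 siRNA, while those of the receptor chains IL1R1 and IL1RAP were within 1.25-fold of control and the decoy IL1R2 was 3.48-fold higher. Differences are given in log2(TPM + 1), a scale that shrinks the change of a low gene. A gene was counted as lower or higher when it was at least 2-fold apart on that scale and its mean over both libraries was at least 1 TPM. Of the 10 members, 6 reached that mean. Of these, 3 were lower, against 8.57% of the 16319 genes that reached it, and 1 was higher, against 10.4%, which makes 4 of 6 in either direction, against 19.0%. The other 2 were within 2-fold. The members were chosen with earlier results of these data known, so these counts describe them and are no evidence of a direction.

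**Figure D1:**
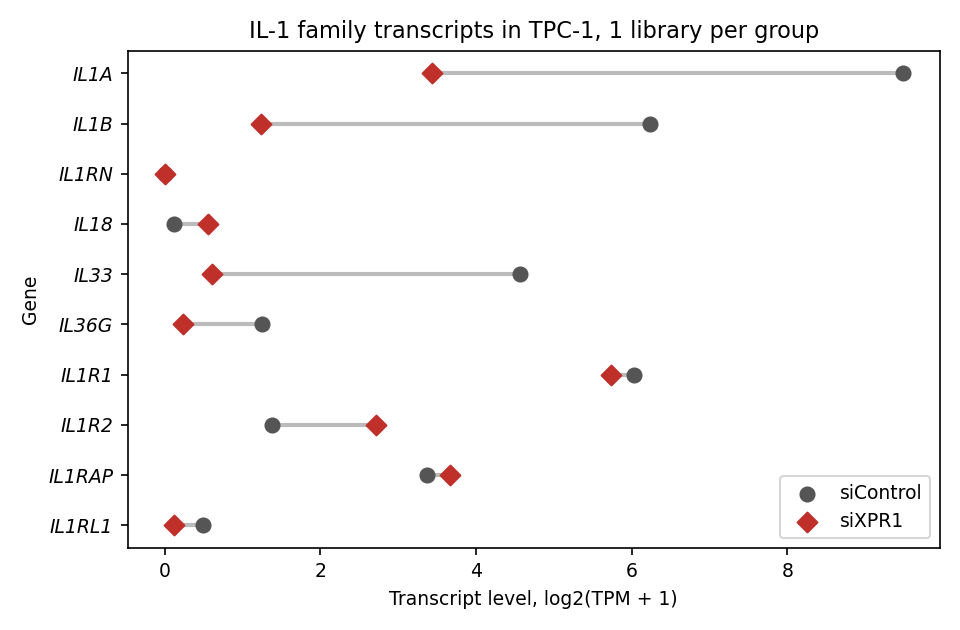
Transcript level of the 10 members on the log2(TPM + 1) scale (x axis) by gene (y axis) in the siControl library (grey circles) and the siXPR1 library (red diamonds), with 1 library per group and therefore no error bars. The longest lines are those of IL1A (716 to 9.86 TPM), IL1B (74.2 to 1.35 TPM) and IL33 (22.7 to 0.530 TPM), and IL1RN lies at 0 in both libraries.

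IL1A encodes IL-1 alpha, an agonist that is active as a precursor and can be released by damaged cells. It had the highest level of any member in the siControl library, 716 TPM, and ranked 118th among the 14500 protein-coding genes above 0. In the siXPR1 library it was at 9.86 TPM and ranked 8392nd of 14617. The difference was -6.05 on the log2(TPM + 1) scale, a TPM ratio 72.6-fold lower (58.7 to 91.1, from 6418 and 85 reads).

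IL1B encodes IL-1 beta, which is made as an inactive precursor that inflammasome-activated caspase-1 cleaves. It was at 74.2 TPM in siControl and 1.35 TPM in siXPR1, and its difference was -5.00 on the log2(TPM + 1) scale. The ratio was 54.8-fold lower (34.1 to 94.5, from 969 and 17 reads). IL33, a nuclear alarmin of epithelial and endothelial cells, was at 22.7 TPM in siControl and 0.530 TPM in siXPR1, 42.7-fold lower (20.5 to 107, from 311 and 7 reads), with a difference of -3.95. The counting intervals of these 3 ratios overlap, so they do not place the 3 agonists in an order.

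The remaining agonists were near the limit of detection. IL36G, an agonist of the epidermis and other epithelia, was at 1.38 TPM in siControl and 0.179 TPM in siXPR1, from 8 reads and 1 read (ratio of siXPR1 to siControl 0.130, interval 0.00293 to 0.969). Its mean of 0.780 TPM kept it out of the count above, and its difference of -1.01, just past 2-fold, became -0.30 with a pseudocount of 5 and -0.50 on recovered reads. IL18, another substrate of caspase-1, was at 0.0910 and 0.473 TPM, from 1 and 5 reads (ratio 5.20, interval 0.582 to 246), so no difference was detectable at this depth. IL18 lay against the direction of the other 4 agonists, but on reads too few to give it one.

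IL1RN, the antagonist, was at 0 TPM in both libraries. A count of 0 allows up to 3 reads, which in a gene of its length come to 0.218 TPM in siControl and 0.227 TPM in siXPR1. Set against the summed level of IL1A and IL1B, 790 TPM in siControl and 11.2 TPM in siXPR1, the antagonist to agonist ratio was 0 in each. The limit allows at most 0.0276% of that sum in siControl and 2.02% in siXPR1.

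IL1R1, the receptor of IL-1 alpha and IL-1 beta, was at 64.4 TPM in siControl and 52.5 TPM in siXPR1, a ratio of 0.815 (0.761 to 0.872, from about 1924 and 1508 reads) and a difference of -0.29 on the log2(TPM + 1) scale. IL1RAP, the chain that IL1R1 and IL1RL1 share, was at 9.35 TPM in siControl and 11.7 TPM in siXPR1, a ratio of 1.25 (1.10 to 1.42) and a difference of 0.30. Both ratios differ from 1 by more than counting error, in opposite directions, and both were within 2-fold. With no replicate, the spread between cultures that such differences would have to exceed is unknown.

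IL1R2, the decoy, was at 1.60 TPM in siControl and 5.58 TPM in siXPR1, 3.48-fold higher (2.09 to 6.06, from 20 and 67 reads), with a difference of 1.34. Its count depends on the threshold, since no member was higher with a pseudocount of 5 (difference 0.68) or with a minimum mean of 5 TPM. IL1RL1, the IL-33 receptor, was at 0.412 TPM in siControl and 0.0857 TPM in siXPR1, from 10 and 2 reads (ratio 0.208, interval 0.0221 to 0.975). IL1RL1 overlaps IL18R1 on the same strand, so how the shared exons were counted bears on this low value.

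**Figure D2:**
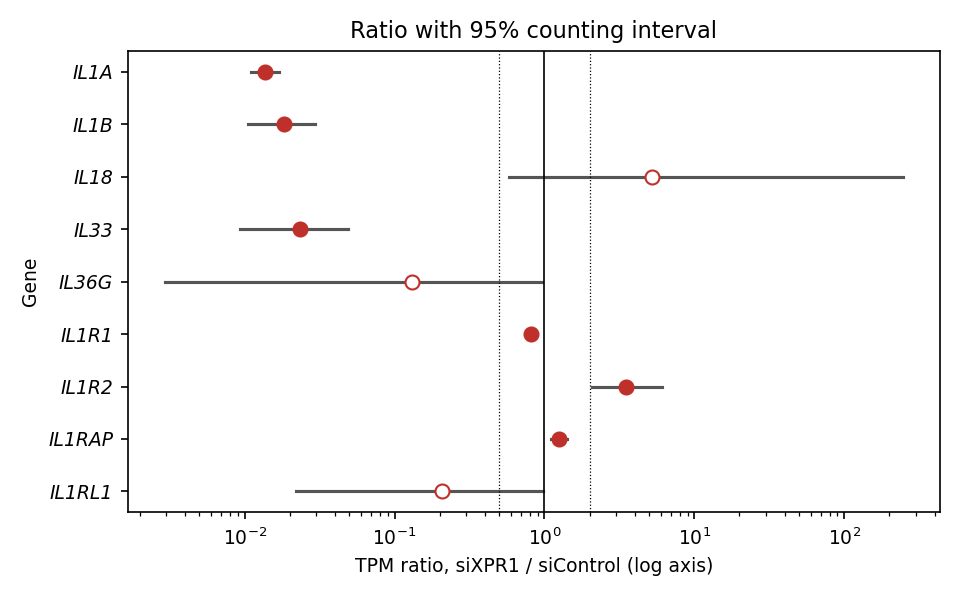
TPM ratio of siXPR1 to siControl (x axis, log scale) for the 9 members above 0 (y axis), with 95% counting intervals as bars, filled points for a mean of at least 1 TPM and open points below it; the solid line marks a ratio of 1 and the dotted lines ratios of 0.5 and 2. IL1A, IL1B and IL33 lie between ratios of 0.0138 and 0.0234, IL1R1 and IL1RAP at 0.815 and 1.25, and IL1R2 at 3.48.

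Ordered by level, the siControl library ran IL1A, IL1B, IL1R1, IL33, IL1RAP, IL1R2, IL36G, IL1RL1, IL18 and IL1RN. Counting intervals of neighbours did not overlap from IL1A down to IL1R2, whereas those of IL1R2 (0.979 to 2.48 TPM) and IL36G (0.596 to 2.72 TPM) did. In the siXPR1 library the receptor chains led, with IL1R1 at 52.5 and IL1RAP at 11.7 TPM, and IL1A followed. The intervals of IL1RAP (10.7 to 12.7 TPM) and IL1A (7.87 to 12.2 TPM) overlapped there. Below them came IL1R2, IL1B, IL33, IL18, IL36G, IL1RL1 and IL1RN, and the intervals of neighbours from IL1B to IL1RL1 overlapped.

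Ratios within a library do not depend on how the libraries are scaled to each other, but those between genes depend on the gene lengths used. Transcripts of IL1A and IL1B together were 12.3 times those of IL1R1 in siControl and 0.214 times in siXPR1. The 5 agonists summed to 814 TPM in siControl and 12.4 TPM in siXPR1, and IL1A made up 87.9% and 79.5% of the sum. IL1R2 was 2.49% of the IL1R1 level in siControl and 10.6% in siXPR1, and IL1R1 was 6.89 and 4.48 times the level of IL1RAP.

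Other genes of the family ranged from 0 to the level of the receptor chains. IL36A, IL36B, IL37 and IL1F10 among the ligands, and IL1RL2, IL18RAP and IL1RAPL2 among the receptors, were at 0 in both libraries. IL18R1, the ligand-binding chain for IL-18, was at 12.7 TPM in siControl and 9.62 TPM in siXPR1 (ratio 0.755, interval 0.616 to 0.924). IL18BP, the secreted inhibitor of IL-18, was at 3.62 and 2.91 TPM, but lies opposite NUMA1 on the other strand (21.5 and 23.5 TPM), and the kit does not mark strand. SIGIRR, an inhibitory receptor, was at 0.746 and 1.34 TPM. IL36RN, the antagonist of IL-36, rested on 3 reads and 1 read, and IL1RAPL1 on none and 1.

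IL1A, IL1B and IL36G lie in the IL-1 ligand cluster on chromosome 2, which spans 360 kb from IL1A to IL1RN (GRCh38, 112773915 to 113134016). Of 11 genes listed on either side of it, 10 reached a mean of 1 TPM and none was 2-fold apart. Among all genes tested 19.0% were called in either direction, and so few neighbours cannot tell a count of none from that share. The neighbours' differences lay between -0.65 and 0.45 on the log2(TPM + 1) scale. CKAP2L, a mitotic spindle gene 9.24 kb beyond the IL1A end, was at 14.0 and 19.5 TPM, and the phosphate importer SLC20A1, 110 kb away, at 254 and 206 TPM. PSD4, 23.3 kb beyond the IL1RN end, was at 4.41 and 2.71 TPM, and PAX8, 82.0 kb away, at 588 and 409 TPM. POLR1B (50.7 and 33.4 TPM), TTL (31.5 and 26.1 TPM), CHCHD5, ZC3H6, RGPD8 and CBWD2 were farther off. PAX8 overlaps an antisense gene, PAX8-AS1 (29.2 and 26.8 TPM).

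The receptor cluster, 461 kb from IL1R2 to IL18RAP (101991844 to 102452565), differed gene by gene. LINC01127, a long non-coding RNA gene that ends 4.68 kb before IL1R2, was at 0.432 TPM in siControl and 3.33 TPM in siXPR1, a ratio of 7.72 (3.49 to 20.1, from 7 and 52 reads). IL1R2 beside it was also higher, whereas IL1R1, 72.7 kb along, was within 2-fold. On the far side of LINC01127, the kinase gene MAP4K4 was at 296 and 126 TPM (ratio 0.426) and RFX8 at 10.8 and 2.64 TPM (ratio 0.244). TBC1D8, CNOT11, RNF149, MFSD9 and TMEM182 were within 2-fold. TBC1D8 (23.1 and 22.8 TPM) overlaps RPL31 (233 and 242 TPM) and CNOT11 on the other strand, which the kit does not mark. Of the 8 listed neighbours of the receptor cluster that averaged 1 TPM or more, 2 were lower and 1 was higher, where 19.0% of all genes tested were called in either direction.

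**Figure D3:**
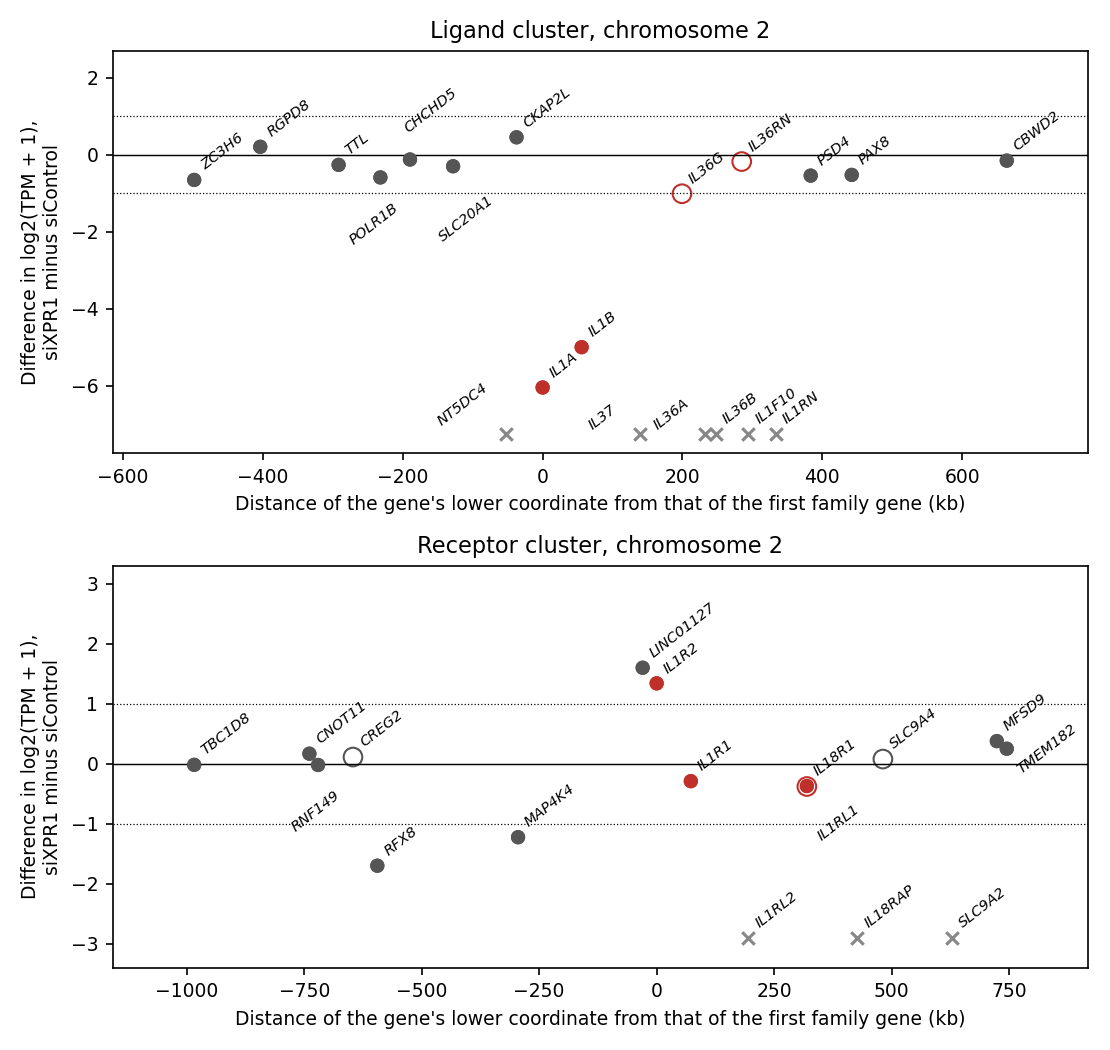
Difference between the libraries in log2(TPM + 1) (y axis, siXPR1 minus siControl) by distance in kb along chromosome 2 (x axis) for the ligand cluster (top) and the receptor cluster (bottom), with family genes in red and neighbours in grey, open circles for a mean below 1 TPM, and crosses, placed at the foot of each panel, for genes at 0 in both libraries. IL1A (-6.05) and IL1B (-5.00) lie far below their neighbours, which span -0.65 to 0.45, and LINC01127 (1.60) lies beside IL1R2 (1.34).

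Of 18 genes of receptor-proximal signalling, 16 reached a mean of 1 TPM and 14 of these were within 2-fold. The count was 2 lower and none higher, against 8.57% and 10.4% of all genes tested, and the median was 0.08 against 0.05 for all genes. IRAK2, the kinase that sustains signalling, was at 355 TPM in siControl and 55.7 TPM in siXPR1 (ratio 0.157, interval 0.146 to 0.169). SQSTM1, a scaffold for TRAF6, was at 203 and 94.2 TPM. The adaptor MYD88 was at 6.30 and 12.2 TPM, the largest positive difference of this list (0.85). PELI1 (19.2 and 28.1 TPM), PELI3 (4.29 and 6.96 TPM), TAB1 (19.5 and 24.4 TPM), TAB2 (224 and 154 TPM) and TAB3 (15.0 and 11.8 TPM) were within 2-fold. PELI3 and SQSTM1 each overlap an expressed gene on the other strand.

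Of 20 genes of IL-1 processing and release, 15 reached a mean of 1 TPM, with 1 lower, 1 higher and a median of -0.02, so neither share was above that of all genes tested (8.57% lower, 10.4% higher). NLRP3, the sensor of the best known inflammasome, was at 64.6 TPM in siControl and 9.01 TPM in siXPR1 (ratio 0.139, interval 0.118 to 0.163). CASP1, the IL-1 beta convertase, was at 2.44 and 9.26 TPM (ratio 3.80, interval 2.64 to 5.60). PYCARD, the adaptor that joins them, was at 0 in both. The IL-1 alpha protease calpain 1, encoded by CAPN1, was at 39.5 and 70.9 TPM and its small subunit CAPNS1 at 178 and 306 TPM. The pore-forming GSDMD was at 27.1 and 38.5 TPM and GSDME at 132 and 78.3 TPM, and NLRP1 (7.87 and 5.25 TPM) and SERPINB1 (66.5 and 60.9 TPM) were also within 2-fold.

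Genes that IL-1 is known to induce were mostly lower. Of 36 listed, 33 reached a mean of 1 TPM, and 25 were lower and 4 higher, against 8.57% and 10.4% of all genes tested, with a median of -1.85. The largest negative differences on the log2(TPM + 1) scale were those of CSF3 (392 and 1.66 TPM), the prostaglandin synthase PTGS2 (375 and 2.57 TPM), the collagenase MMP1 (454 and 3.87 TPM) and the adaptor TRAF1 (135 and 5.56 TPM). The matrix proteases MMP3 and MMP10, named after their values were seen, were at 13.5 and 3.77 TPM in siControl and at 0 in siXPR1, and since the scale shrinks the difference of such low genes, this order is not one of ratios. The acute-phase genes SAA1 (850 and 5212 TPM) and SAA2 (36.1 and 313 TPM), which are near-identical copies of each other, complement C3 (925 and 1882 TPM) and the chemokine CCL2 (191 and 386 TPM) were higher. The last pair were only just past 2-fold, and by median-of-ratios, upper-quartile or trimmed-mean scaling 2 of the list were higher. IRAK2 is in this list as well as the signalling list, and the list was drawn up with results of these libraries known, so its count is no independent evidence of its direction.

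**Figure D4:**
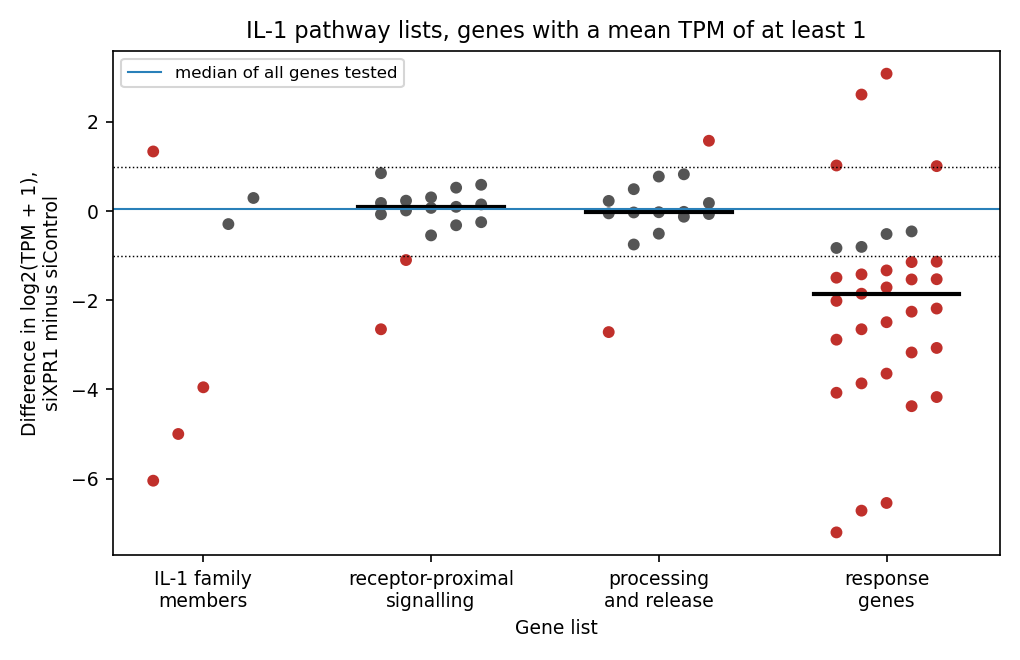
Difference in log2(TPM + 1) between the libraries (y axis, siXPR1 minus siControl) for genes averaging 1 TPM or more in 4 gene lists (x axis), with 1 point per gene, red where at least 2-fold apart (dotted lines), a black bar at the median of the 3 pathway lists and a blue line at the median of all genes (0.05). Signalling (median 0.08) and processing genes (-0.02) lie around that line and response genes (-1.85) mostly below it.

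The protein-coding genes nearest to IL1A by level in both libraries, measured as the distance between log2(TPM + 1) values over the 2 libraries, were MMP1 (distance 1.33), CSF2 (1.40) and CXCL3 (1.81). Those nearest to IL1B were TCIM (0.53), the IL-13 decoy receptor IL13RA2 (0.64) and VNN3P (1.09). With 2 libraries this says only that their levels were alike. No protein-coding gene other than the members came within 1 unit of IL1A.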

How the data were processed

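RNA was measured in 1 siControl and 1 siXPR1 library of TPC-1. Per the labels' protocols, the TruSeq RNA Library Prep Kit v2 was used, which does not mark strand. Trimmomatic 0.38, featureCounts 2.0.0, FastQC and MultiQC are named in the submitters' processing notes, with the GRCh38 build. Which aligner and annotation release were used is not given in the sources used here. TPM values were deposited by the authors and sum to 1000000 in each library, with no further scaling recorded. Symbols came from a name table (58472 of 58884 identifiers) and GENCODE 29, which also gave coordinates and exon lengths.

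TPM times exon length, divided by its step, came out whole to within 0.01 in 92.2% of siControl genes and 92.4% of siXPR1 genes that had no more than 10 reads, in 72.0% and 71.6% of all genes above 0, and in 55.5% of protein-coding genes in each library. Members' reads were whole in both libraries for 6 of 10, among them IL1RN, whose 0 TPM is whole at any length. For IL18, IL36G and IL1R2 they are the whole pair with the same ratio, and for IL1R1 they were rounded. Genes averaging 1 TPM or more were compared on log2(TPM + 1), and no test was possible with 1 library per group. Python 3.11.15, pandas 2.3.3 and scipy 1.17.1 were used. Alternatives were other pseudocounts, minimum levels, thresholds and scalings, TPM without mitochondrial genes, protein-coding genes only and recovered reads. A planned comparison of protein sequences was not made here.

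The members and the 14 gene lists were chosen with earlier results of these data known. The rule for named genes took all members, other family genes above 0, the 4 largest differences in each direction of the 3 pathway lists, all expressed neighbours of the clusters, and the 3 genes nearest IL1A and IL1B.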

Additional observations from a re-analysis of the deposited data

How the results depend on the processing

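No paired analysis was possible because there is a single library in either group, which also left no replicate to omit. Another pseudocount, minimum level, threshold or gene class cannot turn the sign of a member's difference. The other scalings shifted the libraries by 0.0557 to 0.0909 in log2, less than the difference of any member above 0. They therefore could not turn a sign either. TPM without mitochondrial genes and recovered reads turned none of the 9 members above 0. Minimum levels, the 1.5-fold threshold and the restriction to protein-coding genes do not enter a member's difference, so the other alternatives set its range. Over all 12 alternatives IL1A ranged from -6.17 to -5.60, IL1B from -5.68 to -3.64 and IL33 from -5.18 to -2.32 on the log2 scale. IL1R2 ranged from 0.68 to 1.74, IL1R1 from -0.38 to -0.27, IL1RAP from 0.21 to 0.32 and IL36G from -2.41 to -0.30. With a pseudocount of 5 the count of higher members was 0 and that of higher processing genes 0, and with a minimum mean of 5 TPM the count of higher members was 0. A 1.5-fold threshold gave 2 higher signalling genes, and 2 lower and 3 higher processing genes. Trimmed-mean, median-of-ratios and upper-quartile scaling gave 2, 2 and 2 higher response genes. With 1 TPM added to each gene, the antagonist to agonist ratio was 0.00126 in siControl and 0.0757 in siXPR1, and the decoy to signalling receptor ratio 0.0398 in siControl. The other 92 counts and ratios stayed within 1.5 times their value or within counting error. Depth limits IL18, IL36G and IL1RL1, which rest on 10 reads or fewer per library, and IL1RN, which had none.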

Other observations

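Genes that restrain IL-1 signalling went different ways. Those named here were picked with their values in view, so they carry no count. TNFAIP3, which encodes the deubiquitinase A20, was at 279 TPM in siControl and 30.1 TPM in siXPR1, and NFKBIA, the inhibitor of NF-kB, at 922 and 202 TPM. ZC3H12A, a nuclease that degrades cytokine mRNAs, was at 257 and 77.9 TPM, and TNIP1, a partner of A20, within 2-fold at 478 and 274 TPM. TOLLIP, an adaptor that dampens IRAK1 signalling (18.5 TPM in siControl, ratio 1.19), and the inhibitory receptor SIGIRR (0.746 and 1.34 TPM) were not lower, and the decoy IL1R2 was higher. IRAK3, the inhibitory kinase of myeloid cells, had 2 reads in each library.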
